A study of Mus musculus with 4 samples.

Results

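The 38 genes described here encode enzymes, mostly mitochondrial, of pyruvate and fatty acid metabolism. Enzymes that use or make pyruvate and the tricarboxylic acid (TCA) cycle account for 19 genes, and fatty acid beta-oxidation for 19 genes. The 38 were chosen as a list of gene symbols by known function, and all were found among the 11111 genes of the deposited table. RNA was measured in cultured macrophages, derived over 7 days from bone marrow of C57BL/6 mice. Cells of both groups received the delivery reagent Endoporter (6 µl/ml) with a morpholino at 2 µM for 24 hours, then the bacterial product lipopolysaccharide (LPS) at 10 ng/ml for 4 hours. The morpholino was a control oligomer (Ctrl MO, 2 libraries) or MO1 and MO2 against Regnase-1 (Reg1-MOs, 2 libraries), an RNase that destroys inflammatory mRNAs. Every library is LPS-stimulated, so no value here describes resting cells, and the labels do not say whether replicates are separate mice or separate wells. The p-values therefore reflect the spread between these libraries alone, and that spread may be technical.

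The TCA cycle oxidises acetyl-CoA inside the mitochondrial matrix and hands its electrons to the respiratory chain. Acetyl-CoA arrives from glucose, by way of the pyruvate dehydrogenase complex, and from fatty acids, which are carried into the matrix on carnitine and shortened in repeated rounds of dehydrogenation, hydration, a further dehydrogenation and thiolysis. In macrophages, LPS is known for a shift toward glycolysis and for drawing cycle intermediates into itaconate, succinate and citrate export, while alternative activation is associated with fatty acid oxidation.

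The 4 libraries held 23369753 to 25213695 reads in the table, with a median of 404 to 437 reads per gene. Zc3h12a, the Regnase-1 gene, had normalised levels of 179 and 187 with Ctrl MO, against 403 and 380 with Reg1-MOs, so the mRNA of the targeted gene was higher, not lower, in both Reg1-MOs libraries. A normalised level here is 2 to the power of the deposited log2 value, a scale on which each library was divided by the size its values imply. All 10 macrophage markers listed were in the table, with a summed normalised level of 21065 to 21166 with Ctrl MO and 19226 to 19320 with Reg1-MOs. Of these, Itgam (-0.67) and Lyz2 (-0.27) fell and Cd68 (0.34) rose, and the other 7 did not pass. Of 10 neutrophil markers 9 were in the table, and none passed the test (summed level 539 to 600 against 455 to 540). Of 12 stromal cell markers 9 were in the table, and all 9 fell (median log2 fold change -1.49). Their summed normalised level was 210 to 215 with Ctrl MO and 84.8 to 95.3 with Reg1-MOs. No marker of dendritic, lymphoid or erythroid cells on the lists was in the table. Of 6 mast cell markers 1 was in the table, Kit, which fell (-0.67, limma adjusted p = 0.0462). Of 5 adipocyte markers 1 was, Fabp4, which stood at 0.30 (adjusted p = 0.0536). Neither cell type can be judged from 1 gene. In bulk RNA a smaller share of some cell type and less RNA per cell cannot be told apart, and the part of these marker changes in the values below was not tested.

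None of the 38 TCA cycle and fatty acid oxidation genes passed the test for a rise or a fall with Reg1-MOs. Here, rose and fell mean passing it. The test was limma with a variance trend, fitted on all 11111 genes, with a Benjamini-Hochberg adjusted p under 0.05 as the threshold; 12.2% of all genes passed it. The lowest adjusted p among the 38 was 0.0526, for the mitochondrial malic enzyme gene Me2. At an unadjusted p under 0.05 there were 5 genes, all higher with Reg1-MOs, against 29.4% of all genes in either direction and 13.6% in that direction. These were Me2, the beta subunit gene of isocitrate dehydrogenase Idh3b, the malate dehydrogenase gene Mdh2, the carnitine palmitoyltransferase gene Cpt1a and the enoyl-CoA isomerase gene Eci1. Other settings of the same test called 0 to 5 of the 38, all as rises and always from among these 5, against 1.76% to 13.8% of all genes called as rises in those settings. With limma's voom on the recovered reads, Me2 alone passed.

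The changes measured in these genes were small. Their median log2 fold change (Reg1-MOs over Ctrl MO) was 0.05, against -0.03 for all genes, and ranged from -0.16 to 0.51, with 23 of 38 above 0 against 45.6% of all genes. Without Reg1-MOs replicate 1 the median was 0.0119 with 21 above 0, without Reg1-MOs replicate 2 it was 0.112 with 29 above 0, and without Ctrl MO replicate 1 it was 0.02 with 22 above 0. The median size of the change was 0.09, against 0.17 for all genes, and 32 of 38 were under 0.2 in size, against 55.8% of all genes. The 95% interval of the fold change lay within 1.5-fold in either direction for 35 of the 38, against 65.6% of all genes, and for 32 to 34 with any 1 library left out. The exceptions were Me2, Eci1 and the pyruvate carboxylase gene Pcx, which had only 13 to 29 reads per library. The median gene of the 38 had 701 reads per library against 429.5 in the table, so counting error was smaller here than for a typical gene. A missed threshold does not show that a gene did not change.

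**Figure D1:**
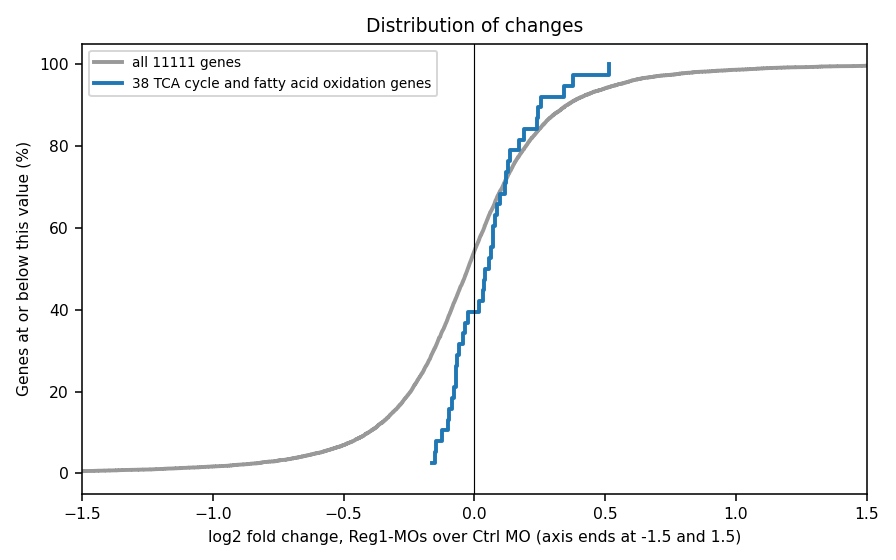
Cumulative share of genes (y axis, percent) at or below a log2 fold change of Reg1-MOs over Ctrl MO (x axis), for all 11111 genes (grey) and the 38 TCA cycle and fatty acid oxidation genes (blue). The blue curve is the steeper: the 38 values run from -0.16 to 0.51, while the grey curve has tails beyond both ends of the axis.

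**Figure D2:**
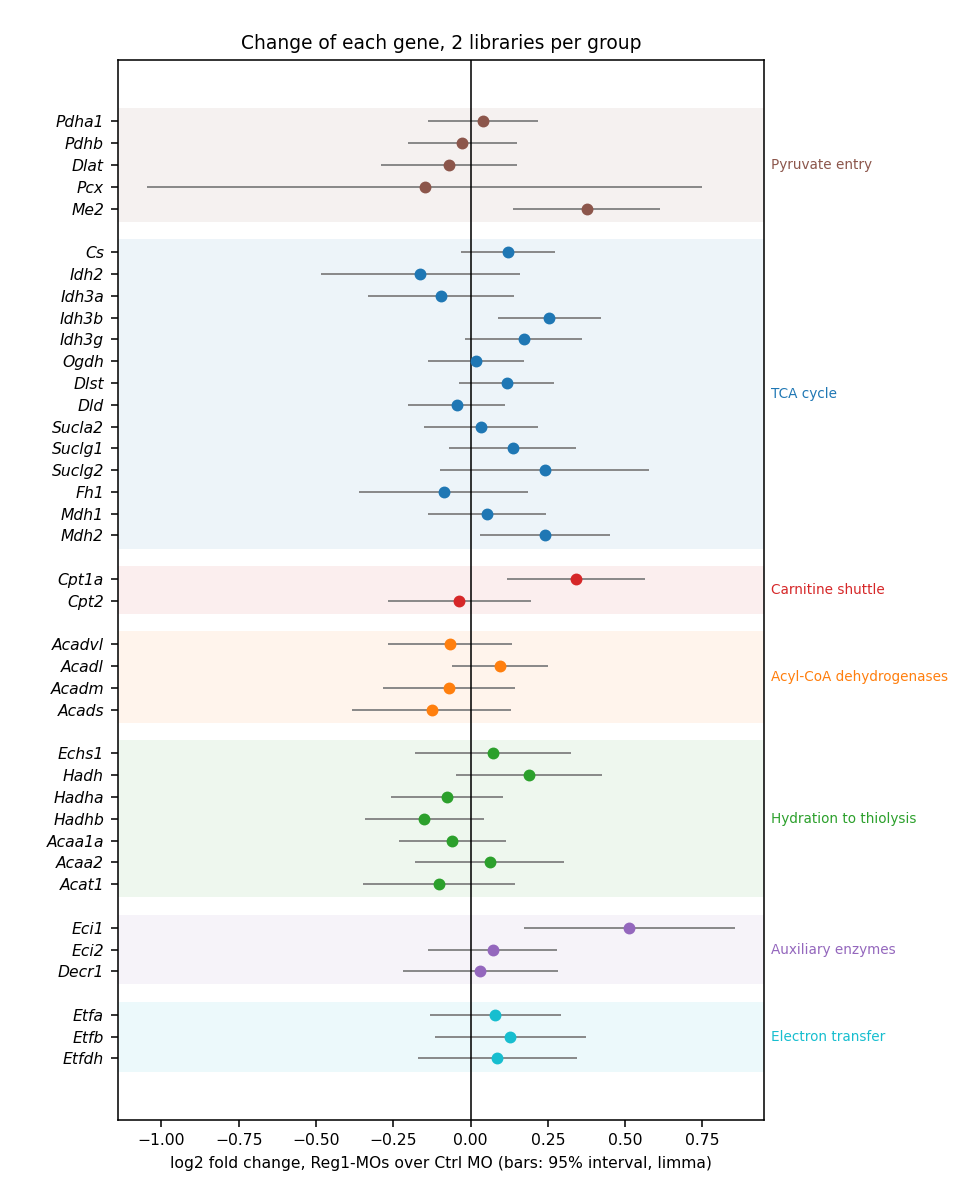
Log2 fold change of each of the 38 genes (x axis, Reg1-MOs over Ctrl MO, 2 libraries per group), grouped by role. Points are limma estimates and bars their 95% intervals; the bars of Me2, Idh3b, Mdh2, Cpt1a and Eci1 lie to the right of 0, and that of Pcx is the widest.

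Carbon from pyruvate enters the cycle through the pyruvate dehydrogenase complex (Pdha1, Pdhb, Dlat) or pyruvate carboxylase (Pcx), and leaves it through malic enzyme (Me2). Me2 had normalised levels of 13.97 and 14.88 with Ctrl MO, against 18.1 and 19.3 with Reg1-MOs. Both Reg1-MOs libraries were above both controls, and the log2 fold change was 0.38 (SE 0.10, limma adjusted p = 0.0526). Its adjusted p was 0.0490 with voom, 0.0440 with quantile normalization and 0.0373 with equal totals, but 0.101 without a variance trend. The call therefore depends on these choices. Dlat, which encodes the acetyl-transferring core of the complex, had levels of 37.4 and 35.5 with Ctrl MO, against 32.7 and 36.9 with Reg1-MOs. Those ranges overlap (log2 fold change -0.07, limma adjusted p = 0.663). The E1 subunit genes Pdha1 and Pdhb stood at 0.04 and -0.03, with 95% intervals of -0.14 to 0.22 and -0.20 to 0.15. Pcx was at 1.02 and 1.39 against 1.52 and 0.76, the lowest level of the 38, and its interval of -1.05 to 0.75 bounds its change only loosely.

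The 14 genes listed with the cycle include the cytosolic Mdh1. Of the 14, 10 were above 0 and 4 below, against 45.6% of all genes above 0. Idh3b, a regulatory subunit of NAD-dependent isocitrate dehydrogenase (ENSMUSG00000027406; chromosome 2, 130279309 to 130284547 on GRCm38, minus strand), had levels of 86.1 and 83.2 with Ctrl MO, against 103 and 99.0 with Reg1-MOs. The groups did not overlap, and the log2 fold change was 0.26 (SE 0.07) with a limma adjusted p = 0.0570. With equal totals the gene passed (adjusted p = 0.0479), but not with quantile normalization (0.0766) or without a variance trend (0.155). Mdh2, which turns malate into oxaloacetate in the matrix (ENSMUSG00000019179; chromosome 5, 135778480 to 135790398, plus strand), had 73.7 and 74.0 against 94.3 and 80.8. Its Reg1-MOs libraries were both higher but differed from each other (log2 fold change 0.24, SE 0.09, limma adjusted p = 0.126). Without Reg1-MOs replicate 2 the Mdh2 value was 0.35 and passed (adjusted p = 0.0401).

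The entry enzyme of the cycle, citrate synthase (Cs), had levels of 226 and 217 with Ctrl MO, against 238 and 244 with Reg1-MOs. The groups did not overlap, though the log2 fold change was only 0.12 (SE 0.06, limma adjusted p = 0.261). Ogdh, the E1 subunit of the 2-oxoglutarate dehydrogenase complex, showed the smallest change of the 38: 129 and 130 against 129 and 133, a log2 fold change of 0.02 (95% interval -0.14 to 0.17). Its partner Dlst stood at 0.12 and Dld, the E3 subunit shared with pyruvate dehydrogenase, at -0.04. The NADP-dependent Idh2 and fumarase (Fh1) were at -0.16 and -0.09, the catalytic Idh3a at -0.10 and the gamma subunit Idh3g at 0.17. The succinyl-CoA ligase genes Suclg1, Suclg2 and Sucla2 were at 0.14, 0.24 and 0.03, and Mdh1, the cytosolic malate dehydrogenase, at 0.05. Adjusted p-values of these 12 genes, from Cs on, ran from 0.204 (Idh3g) to 0.883 (Ogdh) with limma. The Idh2 value rests on unequal Reg1-MOs libraries, at 22.5 and 17.3 against 23.1 and 21.0 in the controls.

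Fatty acids enter the matrix as carnitine esters. Cpt1a, the outer-membrane carnitine palmitoyltransferase that sets the pace of this step (ENSMUSG00000024900; chromosome 19, 3322334 to 3385733, plus strand), had normalised levels of 96.5 and 112 with Ctrl MO, against 125 and 139 with Reg1-MOs. Both Reg1-MOs libraries were higher. The log2 fold change was 0.34 (SE 0.10) with a limma adjusted p = 0.0574, and the gene did not pass without a variance trend either. The value was 0.45 without Ctrl MO replicate 2 and then passed (adjusted p = 0.0440), as it did with quantile normalization (0.0275) and equal totals (0.0258). Cpt2, the inner-membrane enzyme that releases the acyl group again, had levels of 15.0 and 15.2 against 14.6 and 14.8. That gene stood at -0.04 (95% interval -0.27 to 0.19, limma adjusted p = 0.841).

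The 4 acyl-CoA dehydrogenases open each round of oxidation and are ordered by chain length, from very long (Acadvl) through long (Acadl) and medium (Acadm) to short (Acads). Acadl had levels of 143 and 139 with Ctrl MO and of 153 and 149 with Reg1-MOs (log2 fold change 0.10, limma adjusted p = 0.378). Acads had 16.7 and 15.9 against 15.97 and 14.04, a log2 fold change of -0.13 (adjusted p = 0.492). The Acadl libraries did not overlap between groups and those of Acads did. Acadvl and Acadm both stood at -0.07, and no interval of the 4 reached beyond -0.38 or 0.25.

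The following steps are carried out by Echs1, Hadh and the trifunctional protein (Hadha and Hadhb), and end in the thiolases Acaa2 and Acat1, with Acaa1a as the peroxisomal thiolase. Hadh, the short-chain hydroxyacyl-CoA dehydrogenase, had levels of 16.1 and 14.8 with Ctrl MO, against 17.8 and 17.4 with Reg1-MOs (log2 fold change 0.19, limma adjusted p = 0.259). Hadhb, the thiolase subunit of the trifunctional protein, had 32.16 and 31.98 against 29.0 and 28.8 (log2 fold change -0.15, adjusted p = 0.275). Neither gene overlapped between the groups, and they differ in sign. Hadha was at 151 and 140 against 144 and 132, with overlap and a log2 fold change of -0.08. The other 4 ranged from -0.10 (Acat1) to 0.07 (Echs1).

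Hadha and Hadhb lie head to head on chromosome 5 and are transcribed away from each other. On GRCm38.p6 in RefSeq 272 bases separate their start sites, at 30154980 for Hadha (minus strand) and 30155253 for Hadhb (plus strand); GENCODE starts them closer together, at 30155162 and 30155248. The promoter window of Hadhb, chr5:30155003-30155302 on the plus strand, is shown because, by RefSeq, most of it lies between the genes, with the bases between the RefSeq start sites in capitals.
Hadhb: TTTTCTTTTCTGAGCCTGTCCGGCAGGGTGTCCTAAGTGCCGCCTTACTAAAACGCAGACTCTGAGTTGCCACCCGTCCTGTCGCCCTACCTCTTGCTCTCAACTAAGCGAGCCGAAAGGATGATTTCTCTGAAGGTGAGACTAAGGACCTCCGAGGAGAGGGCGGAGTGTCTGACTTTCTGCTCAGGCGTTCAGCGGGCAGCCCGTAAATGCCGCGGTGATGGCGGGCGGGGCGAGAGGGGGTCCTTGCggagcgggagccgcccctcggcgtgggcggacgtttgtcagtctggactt
The mRNAs of these neighbours stood at different levels. Per kb of transcript, Hadha had 2.40 and 2.23 times the reads of Hadhb with Ctrl MO, against 2.54 and 2.34 times with Reg1-MOs. These ratios overlap between groups.

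Unsaturated fatty acids need extra enzymes that move or remove double bonds. Eci1, an enoyl-CoA isomerase (ENSMUSG00000024132; chromosome 17, 24426641 to 24439348, plus strand), had the largest change of the 38, with levels of 5.53 and 4.64 with Ctrl MO, against 7.30 and 7.18 with Reg1-MOs. Its Reg1-MOs libraries were both higher. From 88 to 141 reads per library, the log2 fold change was 0.51 (SE 0.15), with a limma adjusted p = 0.0603. With quantile normalization (adjusted p = 0.0398) and equal totals (0.0496) it passed, and without a variance trend it did not. The related isomerase Eci2 had 40.0 and 36.7 against 41.7 and 38.9, with overlap, and stood at 0.07 (limma adjusted p = 0.635). The dienoyl-CoA reductase Decr1 stood at 0.03.

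Electrons from the acyl-CoA dehydrogenases pass to electron transfer flavoprotein (Etfa and Etfb) and on to its oxidoreductase (Etfdh). Etfb had levels of 38.6 and 35.5 with Ctrl MO, against 44.0 and 37.2 with Reg1-MOs, and Etfa 62.8 and 56.3 against 66.0 and 59.9. In each gene Reg1-MOs replicate 1 was the highest of the 4 libraries, Reg1-MOs replicate 2 lay between the controls, and the log2 fold changes were 0.13 and 0.08 (limma adjusted p = 0.455 and 0.599). Etfdh stood at 0.09.

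Both Reg1-MOs libraries lay above both Ctrl MO libraries for 12 of the 38 genes, against 27.1% of all genes, and below both for 3, against 31.8% of all genes. The 3 were Cpt2, Acadm and Hadhb, all of fatty acid oxidation. Of the 12, 8 were genes of pyruvate or the TCA cycle and 4 of fatty acid oxidation. Within the Reg1-MOs group, replicate 1 was above replicate 2 for 27 of the 38 genes, against 48.3% of all genes, including 17 of the 19 fatty acid oxidation genes. Within the Ctrl MO group, replicate 1 was the higher for 23 of 38, against 45.3% of all genes. The median log2 difference of Reg1-MOs replicate 1 over Reg1-MOs replicate 2 was 0.07 over the 38 genes, against -0.01 over all genes, beside a median change of 0.05 between the groups. Their columns carry the headers MO1 and MO2. The targeting morpholinos have the same names, so the headers leave unclear whether each library received a single morpholino or both.

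Summed over the 14 genes listed with the cycle, normalised levels were 1092 and 1080 with Ctrl MO, against 1162 and 1143 with Reg1-MOs, a ratio of 1.06. The carnitine pair Cpt1a and Cpt2 together gave 111 and 127 against 140 and 154, a ratio of 1.23. For both sums the exact two-sided permutation test gave p = 0.333, the smallest that 2 libraries against 2 allow. The steps from hydration to thiolysis gave 380 and 366 against 375 and 345 (ratio 0.966, exact p = 0.667). The remaining 4 role groups had ratios of 1.02 to 1.07 with overlapping ranges and an exact p of 0.667 each.

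The 38 genes differed far more among themselves than between the groups. Per kb of transcript (RPM by the implied library size, divided by the length in kb of the longest principal transcript in GENCODE), the highest in Ctrl MO were Cs with 75.7 ± 2.16 (SD, n = 2), Acadl with 73.6 ± 1.54, Acaa1a with 66.1 ± 1.24 and Dld with 65.8 ± 2.39. Cs and Acadl do not differ beyond their spread, nor do Acaa1a and Dld. The lowest were Eci1 with 4.45 ± 0.552, Suclg2 with 1.81 ± 0.210 and Pcx with 0.291 ± 0.064. With Reg1-MOs, Cs was at 82.3 ± 1.57 and Pcx at 0.274 ± 0.133. Subunits of a single enzyme also stood apart: Idh3b was at 52.4 ± 1.28, Idh3g at 27.6 ± 0.095 and Idh3a at 8.35 ± 0.350. Etfa and Etfb, by contrast, had 42.7 ± 3.30 and 41.5 ± 2.38.

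**Figure D3:**
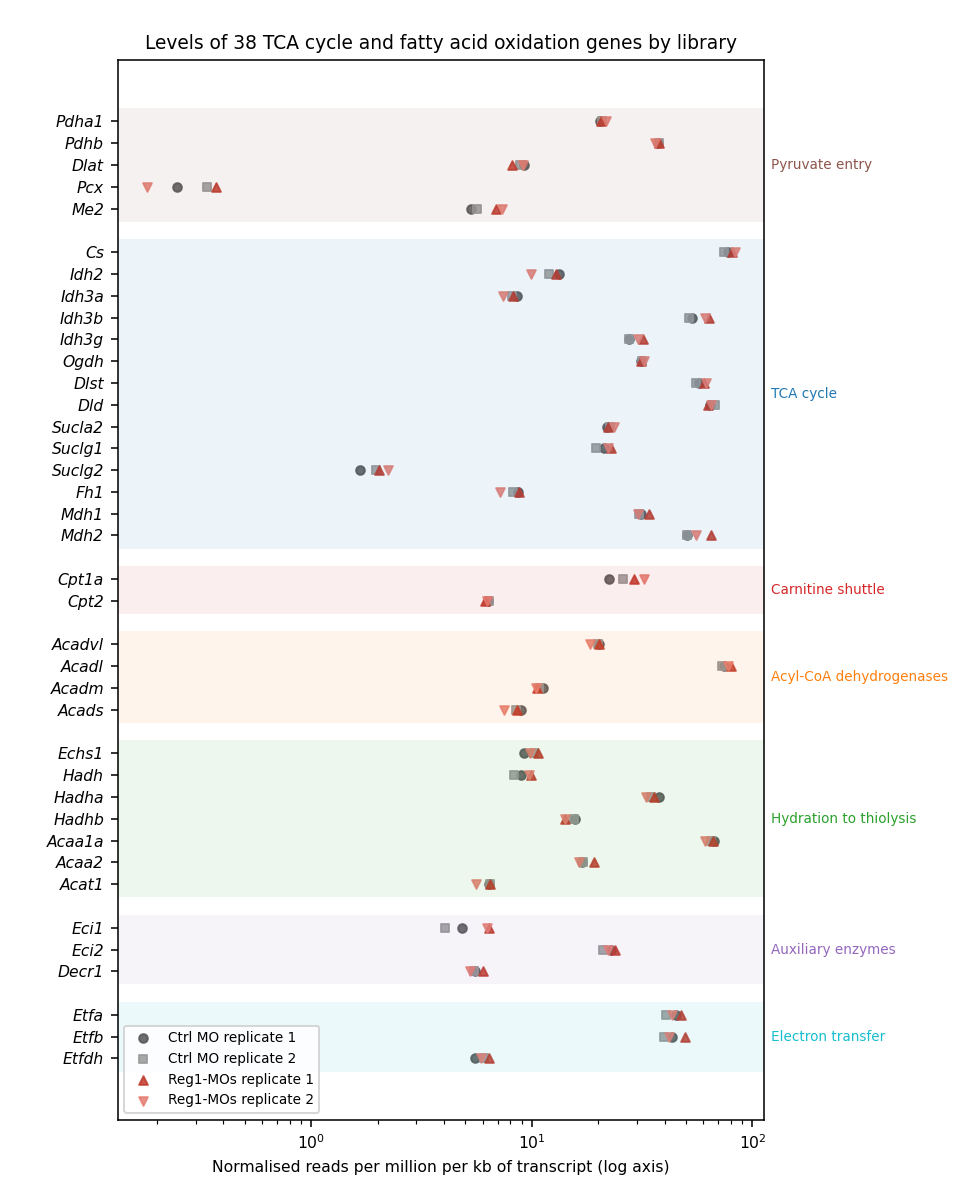
Levels of the 38 genes in each of the 4 libraries, in RPM per kb of transcript on a log axis, grouped by role. The 4 symbols of a gene lie close together, while genes range from Pcx, at 0.291 on average in Ctrl MO, to Cs at 75.7.

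Ratios between partners were taken within each library, which cancels the scaling of the library. The log2 ratio of Idh3a to Idh3b reads was -2.06 and -2.09 with Ctrl MO, against -2.39 and -2.47 with Reg1-MOs, a difference of -0.35, and that of Idh3a to Idh3g was lower by a difference of -0.27. Cpt1a to Cpt2 went from 2.69 and 2.89 to 3.10 and 3.23, a difference of 0.38. Eci1 to Eci2 differed by 0.45, Mdh1 to Mdh2 by -0.19, and the ATP-forming to the GTP-forming succinyl-CoA ligase subunit, Sucla2 to Suclg2, by -0.21. In these 6 pairs the groups did not overlap. Idh3a is in both the Idh3b and the Idh3g pair. Of single genes in the whole table, 27.1% lay above both controls in both Reg1-MOs libraries and 31.8% below. That share was not worked out for pairs. Hadha to Hadhb, Etfa to Etfb and Pdha1 to Pdhb overlapped, with differences of 0.07, -0.05 and 0.07. No test was applied to the ratios.

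**Figure D4:**
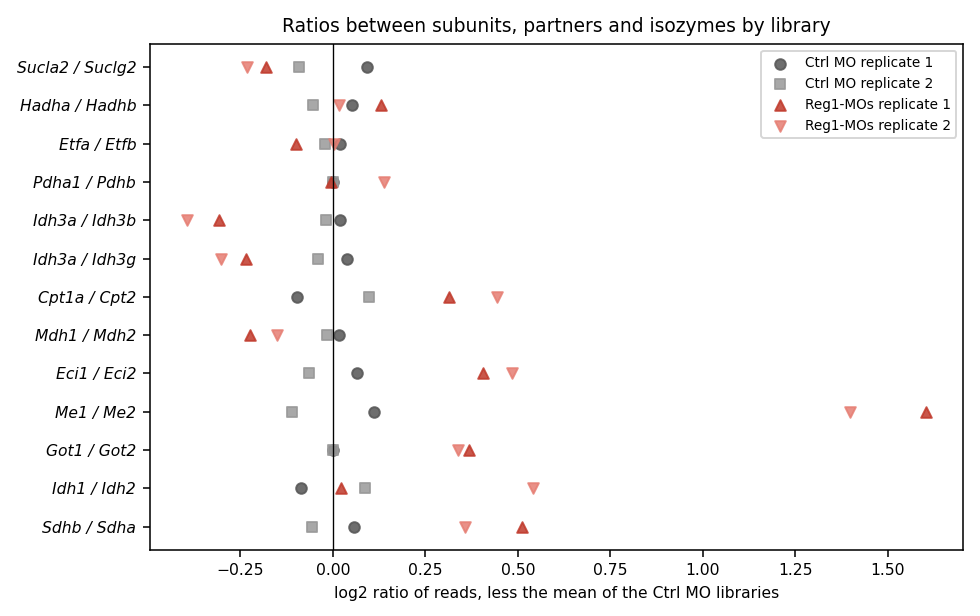
Log2 ratio of reads, less the mean of the Ctrl MO libraries (x axis), for each pair of subunits, partners or isozymes (y axis). Grey symbols are Ctrl MO and red symbols Reg1-MOs libraries; Me1 to Me2 shows the widest gap between groups, 1.5, and Etfa to Etfb the narrowest, -0.05.

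Promoter windows (250 bases before to 50 after the RefSeq start, GRCm38.p6) were available for 33 of the 38 genes. The oestrogen-related receptor motif TNAAGGTCA, searched on both strands, was in 0 of the 33, and in 1.43% of 27025 genes with a window. The extended antioxidant response element TGACTCAGC was also in 0 of the 33, against 0.503% of all. The core TGANNNNGC, with fewer fixed bases, was in 16 of the 33 (48.5%), against 45.0% of all. It was in 48.2% of the 8966 genes of the expression table with a window. In those 8966, TNAAGGTCA and TGACTCAGC were in 0.803% and 0.547%. Every TGACTCAGC is also a TGANNNNGC. Cpt1a and Mdh2 are shown because they are the genes among the 5 at an unadjusted p under 0.05 whose window holds the core, which is in capitals (Idh3b and Eci1 have no match, and Me2 had no window). They are read from chr19:3323051-3323350 and chr5:135778399-135778698, both on the plus strand. GENCODE starts both genes further upstream, at 3322334 and 135778480, so by that annotation the Cpt1a window and the Mdh2 match lie inside the genes.
Cpt1a: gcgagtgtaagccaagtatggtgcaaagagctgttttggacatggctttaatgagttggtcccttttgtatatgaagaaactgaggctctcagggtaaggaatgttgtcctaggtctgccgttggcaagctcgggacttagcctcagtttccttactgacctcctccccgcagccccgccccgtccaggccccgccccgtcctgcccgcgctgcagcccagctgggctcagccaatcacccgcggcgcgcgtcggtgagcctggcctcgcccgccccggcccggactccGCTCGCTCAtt
Mdh2: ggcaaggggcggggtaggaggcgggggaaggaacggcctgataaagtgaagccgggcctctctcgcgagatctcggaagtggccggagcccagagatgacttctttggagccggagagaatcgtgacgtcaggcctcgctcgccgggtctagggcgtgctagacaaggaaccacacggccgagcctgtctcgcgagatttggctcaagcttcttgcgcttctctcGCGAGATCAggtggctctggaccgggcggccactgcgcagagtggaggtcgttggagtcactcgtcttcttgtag
Both matches lie on the opposite strand. A match is a description of these letters and says nothing of binding.

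Enzymes and carriers around these 38 genes were taken from 5 further lists by function. Of the 89 genes found there, 7 rose and 2 fell, against 6.22% and 6.03% of all genes. In the list of other TCA cycle and pyruvate genes 3 of 22 rose and none fell. Me1, the cytosolic malic enzyme that makes NADPH, had levels of 2.39 and 2.18 with Ctrl MO, against 8.64 and 7.96 with Reg1-MOs (3.64-fold, limma adjusted p = 0.00108). Sdhb, the iron-sulphur subunit of succinate dehydrogenase, had 59.5 and 56.2 against 83.6 and 75.7 (log2 fold change 0.46, SE 0.08, adjusted p = 0.0137). The other subunits of that enzyme, Sdha, Sdhc and Sdhd, stood at 0.03, 0.10 and 0.05 and did not pass. Lactate dehydrogenase A (Ldha), which diverts pyruvate to lactate, was at 229 and 219 against 292 and 273 (0.33, SE 0.07, adjusted p = 0.0218). The pyruvate dehydrogenase kinase gene Pdk1 stood at -0.38 (adjusted p = 0.0652). Sdhb no longer passed when Ctrl MO replicate 2 (0.0859) or Reg1-MOs replicate 1 (0.0704) was left out. Ldha no longer passed when either control or Reg1-MOs replicate 1 was (0.0796 to 0.232). Both also ended without a variance trend (0.0844 and 0.117).

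Of 14 carriers and shuttle enzymes 1 rose and 2 fell, and 1 of those that fell is described here. The cytosolic aspartate aminotransferase Got1, of the malate-aspartate shuttle, had levels of 19.16 and 20.02 with Ctrl MO, and its levels with Reg1-MOs were 29.0 and 27.1 (log2 fold change 0.52, SE 0.09, limma adjusted p = 0.0132), and its mitochondrial counterpart Got2 stood at 0.17 (adjusted p = 0.218). ATP-citrate lyase (Acly), which splits exported citrate, had 145 and 150 against 113 and 125 (-0.31, SE 0.08, adjusted p = 0.0369). Acod1, which makes itaconate from a cycle intermediate, was far more abundant, at 9119 and 9128 against 8200 and 8497, and did not pass (-0.13, adjusted p = 0.237). Leaving out either control or Reg1-MOs replicate 1 ended the call of Acly (adjusted p 0.0982 to 0.290). Leaving out Ctrl MO replicate 1 (0.0606) or, likewise, Reg1-MOs replicate 1 (0.0738) ended that of Got1. With no variance trend in the fit both ended (0.0604 for Got1 and 0.138 for Acly).

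Among 24 further genes listed with fatty acid oxidation 2 rose and none fell. Acsl1, which activates long-chain fatty acids to acyl-CoA for both storage and oxidation, had levels of 583 and 601 with Ctrl MO, against 870 and 1056 with Reg1-MOs (1.62-fold, limma adjusted p = 0.00472; 0.0687 without a variance trend). Mecr, in fact a reductase of mitochondrial fatty acid synthesis, had 17.5 and 18.5 against 24.3 and 23.6 (log2 fold change 0.41, SE 0.09, adjusted p = 0.0312), a call that ended without any 1 of the 4 libraries (0.0590 to 0.204) and without a variance trend (0.0809). Slc25a20, the carnitine-acylcarnitine carrier between Cpt1a and Cpt2, stood at 0.26 (adjusted p = 0.183). None of 14 peroxisomal oxidation genes passed, with 4 at an unadjusted p under 0.05, against 29.4% of all genes.

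Of 15 regulators of mitochondrial genes, 1 passed: the nuclear receptor gene Rxra, at 10.4 and 10.7 against 15.61 and 14.04 (log2 fold change 0.49, SE 0.11, limma adjusted p = 0.0316). Leaving out either control or Reg1-MOs replicate 1 ended its call (0.0977 to 0.126), as did a fit with no variance trend (0.0758). The coactivator Ppargc1b and the oestrogen-related receptor Esrra stood at -0.17 and -0.07. Among 20 genes of mitochondrial import, protein quality and membranes, the matrix chaperone Hspa9 had 216 and 213 against 322 and 325 (1.51-fold, adjusted p = 0.00205) and the matrix protease Lonp1 46.7 and 47.2 against 68.8 and 65.5 (1.43-fold, adjusted p = 0.00626; 0.0564 without a variance trend). The other 18 did not pass, and the list median was 0.06.

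**Figure D5:**
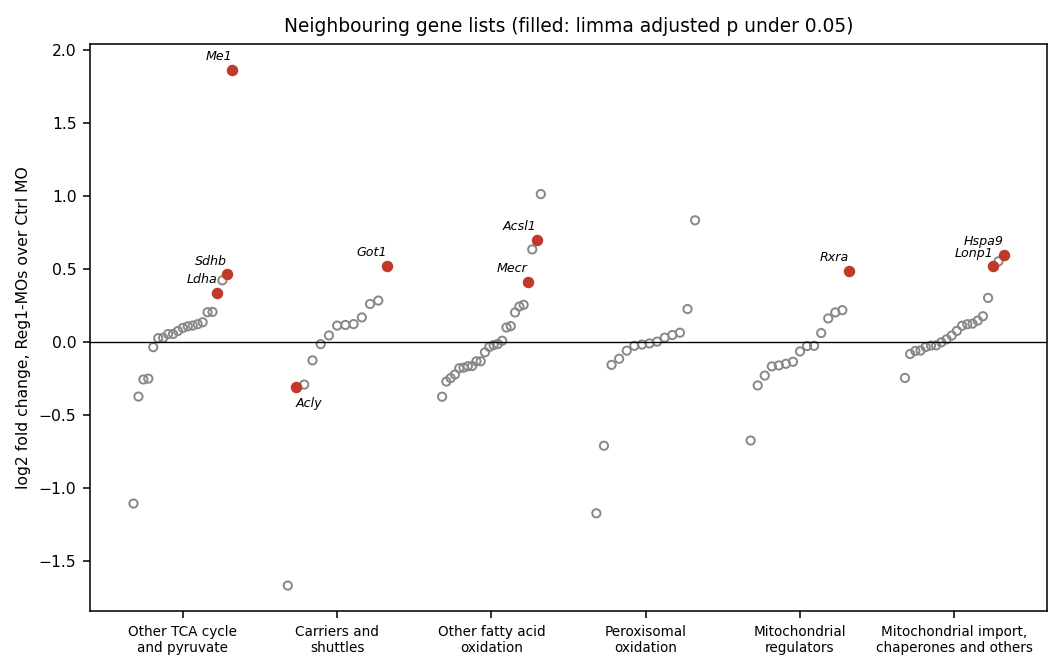
Log2 fold change (y axis) of the genes reported here from 5 neighbouring pathway lists and a list of mitochondrial import, chaperone and membrane genes, ordered within each list. Filled red points passed limma's test and are named; Me1, at 1.86, is the highest point, and the open circles below -1 are genes that did not pass.

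Cytosolic and matrix isozymes were compared by ratio, for pairs chosen after their values were seen. The log2 ratio of Me1 to Me2 was -2.56 and -2.79 with Ctrl MO, against -1.07 and -1.28 with Reg1-MOs. That of Got1 to Got2 was -1.05 in both controls and -0.69 and -0.72 with Reg1-MOs. Idh1 to Idh2 overlapped between the groups. These differences were not tested.

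Reads of genes that overlap on opposite strands cannot be told apart where the counter's strand setting is not given. Genes that GENCODE types as TEC were left out of all overlaps given here. Exons of 10 of the 38 genes overlap another GENCODE gene. The overlap is up to 1151 bases, for Acadvl with Dvl2, and is 290 bases for Acaa1a with Myd88. Etfb shares 617 exonic bases with Gm45233 on the same strand, which no strand setting would separate. For Idh3b the overlap with Nop56 is 5 bases, and Me2, Cpt1a, Eci1 and Mdh2 have none. Acaa1a also has a near-identical neighbour, Acaa1b, which could share reads with it.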

How the data were processed

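RNA of 4 libraries (2 per group) was sequenced, per the labels' protocols, from directional poly(A) libraries. The submitters' processing notes name HISAT2 1.6.3, cutadapt, FastQC and the build mm10. Not given in the sources used here are the scaling, the counter, how genes were filtered and whether strand was used. Log2 values deposited by the authors were given for 11111 genes. Less an offset of 0.5 reads, 100% of these values are whole reads times a constant per library (tolerance 0.01), so reads were recovered. The constants imply library sizes of 17767798 to 19377000, below the totals in the table.

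The deposited log2 values were tested unfiltered with limma 3.58.1 (R 4.3.3), group as the only term, two-sided, Benjamini-Hochberg adjusted over all genes at a threshold of 0.05. There were 2 residual degrees of freedom and 5.47 from limma's prior. The test was checked on simulated reads with the same added variability for every gene, which does not show how it behaves on these libraries. Sums used exact permutation tests (scipy 1.17.1). Positions and transcript lengths are from GENCODE M21 (GRCm38, the assembly of mm10), where all 38 symbols matched, and promoters from RefSeq. Alternatives were no variance trend, quantile normalization, equal totals, a mean of at least 50 reads, an offset of 8 reads, voom, a replicate block and leaving out each library. The members and lists were chosen with earlier results of these data known. Genes named in full are the 2 of each role with the smallest p, the largest and the smallest change, and, in further lists, those past the threshold. Cs, Idh2, Hadha, Pcx and the genes that did not pass in further lists were chosen after their values were seen. Values of 2 genes of the further lists are not reported here, though the counts include them.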

Additional observations from a re-analysis of the deposited data

How the results depend on the processing

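Of the 38 genes, the main test called 0 as rises. Quantile normalization called 3 (Me2, Cpt1a and Eci1), equal totals 4 (these and Idh3b), a mean of at least 50 reads 1 and voom on recovered reads 1 (Me2 in both). Leaving out 1 library gave 0 to 1: Cpt1a without Ctrl MO replicate 2 and Mdh2 without Reg1-MOs replicate 2. No setting tried called a fall. The replicate block called 5 of the 38 as rises (Me2, Cpt1a, Eci1, Idh3b and Mdh2), 1532 rises and 1891 falls among all genes (30.8% of the table), and 13 rises and 11 falls in the further pathway lists. No label says that equal numbers share a mouse or a day. Deviations of same-numbered libraries correlated at 0.314 over 9476 genes whose mean reached 50 reads (across genes, not independent replicates) and at -0.258 over the 38, so the pairing is not settled. The 38 genes' median of 0.05 ranged from 0.0119 to 0.112 with 1 library left out.

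Among all genes, 691 rises and 670 falls became 195 and 182 without a variance trend, 249 to 530 rises and 258 to 860 falls with 1 library left out. In the 5 further pathway lists, 7 rises and 2 falls became 1 and 1 without a variance trend, and 2 to 6 rises and 0 to 7 falls with 1 library left out. Their median of 0.01 became 0.0404 with quantile normalization, 0.0293 with equal totals, 0.0254 with a mean of at least 50 reads, and 0.0115 to 0.0239 with 1 library left out. The summed level of the cycle genes had a ratio of 1.08 with equal totals. With 1 library left out the lone sample of a group is assumed to vary like the others. Of 417 values of the 38 genes under these alternatives, 14 in 13 genes changed sign, all with 1 library left out and none past the threshold. Their lowest and highest values with 1 library left out were -0.058 to 0.00514 for Pdhb, -0.158 to 0.019 for Dlat, -0.65 to 0.353 for Pcx, -0.353 to 0.0289 for Idh2, -0.00717 to 0.0766 for Sucla2, -0.227 to 0.0519 for Fh1, -0.022 to 0.13 for Mdh1, -0.137 to 0.00416 for Acadvl, -3.79e-05 to 0.146 for Echs1, -0.121 to 0.00162 for Acaa1a, -0.0508 to 0.175 for Acaa2, -0.209 to 0.00403 for Acat1 and -0.0626 to 0.124 for Decr1. The cause was not tested for any of these changes. Pcx had 13 to 29 reads per library.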
